A study of Mus musculus with 12 samples.

Results

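Cluster 5 of the 12W spleen library held 718 of the 6894 cells sequenced from that organ and age, or 10.4% (exact binomial 95% interval 9.70 to 11.2%), and 718 of the 20510 cells of all 3 libraries. Its members were the cells that the authors' own clustering, deposited as a cell barcode list, placed in cluster 5, and it is called here the *Igfbp4 Ccr9* cluster after 2 of the 5 genes proposed as its markers, *Igfbp4*, *Ampd1*, *Cd7*, *Ccr9* and *Ddit4*. PD-1+CD44+CD8+ T cells had been sorted from spleens of female NZB/W F1 mice at 12 weeks (12W spleen) and 28 weeks (28W spleen) and from kidneys at 28 weeks (28W kidney), and single-cell 5′ RNA libraries were made from them. NZB/W F1 mice are the lupus-prone cross of the NZB and NZW strains, which develop an immune-complex nephritis with age. The 3 groups shared strain and sort gate, no treatment was labelled, and they differed in age and organ. The labels list 4 samples in each group, but the deposited tables pool them into 1 library per group with no map from cells to samples, and the labels do not say whether the 4 samples were separate animals. The titles of the 28W spleen samples give 28 weeks whereas their age field gives 12 weeks, and the titles were followed. With 1 library per group no difference below has a replicate check, no p-value is given, and every interval is an exact 95% interval that covers counting error only.

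CD8+ T cells recognise peptide on MHC class I and turn from quiescent, lymph node homing cells into cytotoxic effectors once their receptor is triggered. PD-1, encoded by *Pdcd1*, is induced by receptor triggering and restrains it, which makes it a mark of antigen-experienced cells, and CD44 marks activated and memory T cells. Within a spleen such a sort can hold recently stimulated cells that enlarge their ribosome and nucleotide synthesis, dividing cells, effector cells loaded with chemokines and granzymes, and resting memory-like cells that keep *Ccr7* and *Lef1*.

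The cells of cluster 5 were well covered. The cluster summed to 4059688 UMIs (unique molecular identifiers, each 1 captured RNA molecule), 5654 per cell, against 4968 per cell over the other 6176 cells of 12W spleen. Mitochondrial transcripts made up 1.10% of its UMIs and ribosomal protein transcripts 31.0%, against 1.19% and 29.98% in the other cells. Levels below are counts per 1000000 UMIs of a cluster (CPM), so that 1 UMI in cluster 5 equals 0.246 CPM and a gene with 0 UMIs lies under 0.739 CPM, the level of 3 counts. The other clusters ranged from 928 UMIs per cell in cluster 8, where 8.98% of UMIs were mitochondrial and 1 UMI equals 3.51 CPM, to 14345 in cluster 10. Cluster 3 carried 37177 CPM of 6 erythroid genes. Of the 718 barcodes, 5 also occurred in the 28W spleen library and 8 in the 28W kidney library.

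The 5 marker genes were all higher in cluster 5 than in the other 12W spleen cells combined, but 2 of them peaked elsewhere. The clusters were drawn from these same transcripts, so the differences describe how the cells were divided and test nothing. *Igfbp4* encodes a secreted protein that binds insulin-like growth factors (chromosome 11, 99041244 to 99054392 on GRCm38). It reached 87.0 CPM in cluster 5 (353 UMIs, interval 78.1 to 96.5) against 36.1 CPM in the other cells, a ratio of 2.41 (2.13 to 2.71). By cluster its level was 35.1 CPM in cluster 1, 2.84 in cluster 2, 8.43 in cluster 3, 41.4 in cluster 4, 66.5 in cluster 6, 3.01 in cluster 7, 14.04 in cluster 8, 31.7 in cluster 9 and 132 in cluster 10. Cluster 10 was therefore above cluster 5, cluster 6 came next below it, and clusters 2 and 7 had the lowest levels.

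*Ampd1* encodes the muscle-type AMP deaminase, which converts AMP to IMP (chromosome 3, 103074014 to 103099720). It was a low gene, with 113 UMIs among the 718 cells, or 27.8 CPM (22.9 to 33.5) against 10.3 CPM in the other cells, a ratio of 2.69 (2.15 to 3.35). The next levels were 18.1 CPM in cluster 1 and 17.3 CPM in cluster 4, and cluster 2 lay at 0.258 CPM. Cluster 5 was the highest of the 10 clusters for this gene, with a ratio of 1.54 (1.17 to 2.01) to cluster 1.

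*Ccr9* encodes the receptor for the chemokine CCL25, which draws T cells to the small intestine and is used by developing thymocytes (chromosome 9, 123678439 to 123784330). Its level in cluster 5 was 98.8 CPM (89.3 to 109) against 57.4 CPM in the other cells. The levels of the other clusters were 83.4 CPM in cluster 1, 9.80 in cluster 2, 47.9 in cluster 3, 65.0 in cluster 4, 68.1 in cluster 6, 31.9 in cluster 7, 204 in cluster 8, 79.5 in cluster 9 and 62.4 in cluster 10. Cluster 8, which had the fewest UMIs per cell, was above cluster 5, and the gene was spread over most clusters other than 2.

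*Cd7*, a costimulatory surface protein of T and NK cells (chromosome 11, 121036747 to 121039418), stood at 572 CPM (549 to 596) in cluster 5 and at 569 CPM in cluster 1, levels that differed by less than counting error. Both were above the 349 CPM of the other cells combined. *Ddit4*, an inhibitor of the growth kinase complex mTORC1 that is induced by stress and glucocorticoids (chromosome 10, 59949669 to 59951834), stood at 418 CPM (398 to 438) against 257 CPM, and cluster 1 came next with 355 CPM. The plot of marker levels by cluster shows that *Ampd1* and *Ddit4* were highest in cluster 5. With 10 CPM added to both levels, neither was 1.5-fold above cluster 1 (log2 ratios of 0.43 and 0.23). *Igfbp4* was past that fold over cluster 1 (1.10) but was higher in cluster 10. *Ccr9* was higher in cluster 8, and *Cd7* was level with cluster 1.

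**Figure D1:**
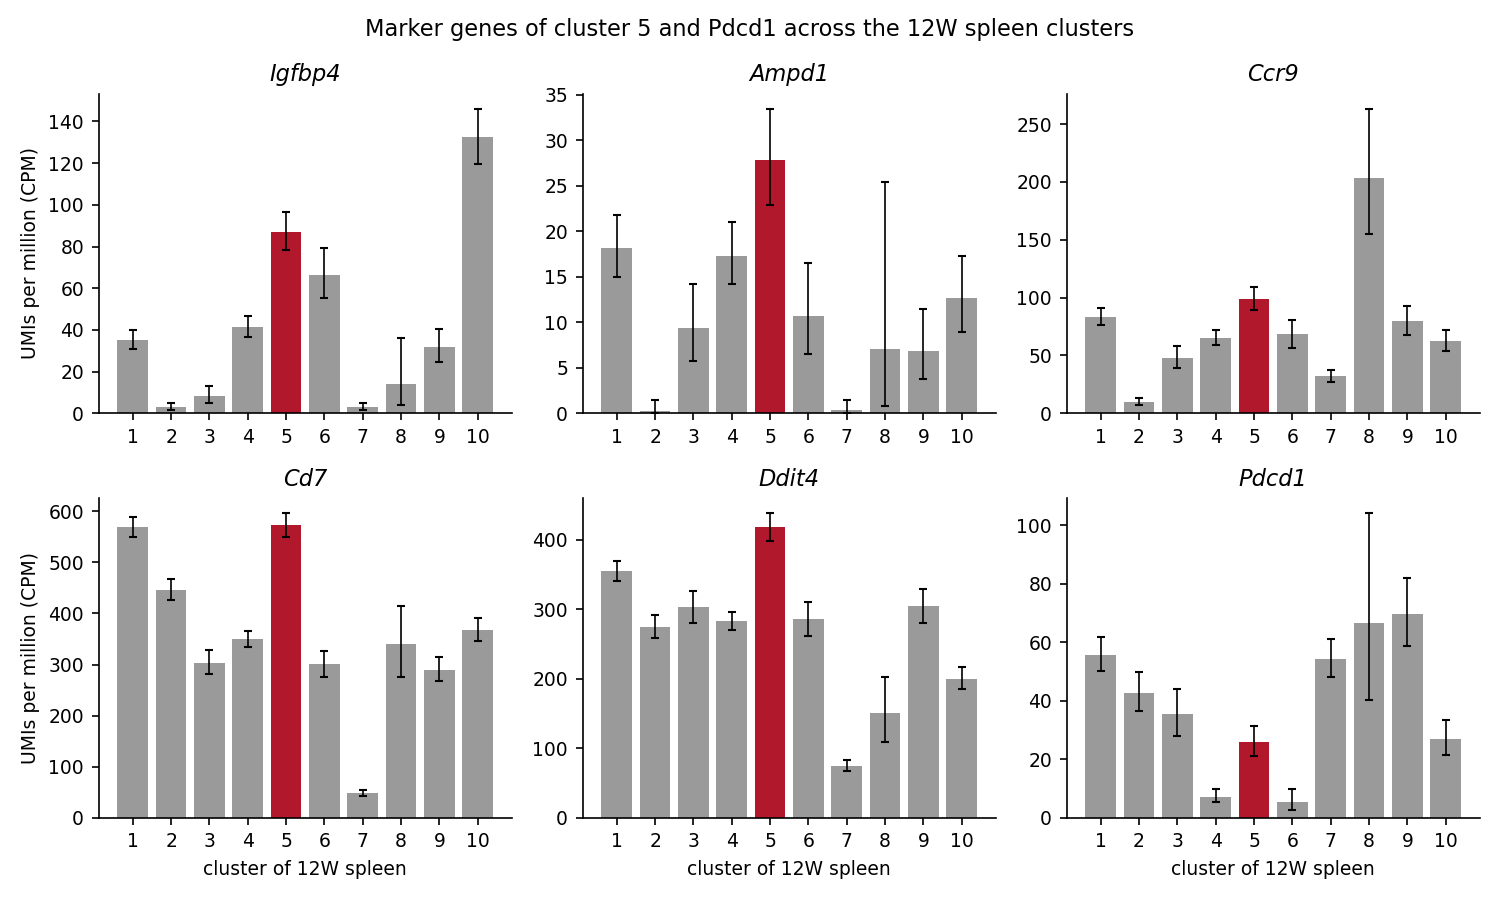
Level of the 5 marker genes and of *Pdcd1* in the 10 clusters of 12W spleen, in CPM (bars, cluster 5 in red), with exact Poisson 95% intervals for counting error. *Ampd1* and *Ddit4* were highest in cluster 5, *Igfbp4* was highest in cluster 10 (132 CPM) and *Ccr9* in cluster 8 (204 CPM), while *Pdcd1* in cluster 5 (25.9 CPM) lay above clusters 4 and 6 and below most others.

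The sort markers were present. *Cd8a* stood at 739 CPM and *Cd8b1* at 1118 CPM in cluster 5, against 571 and 840 CPM in the other cells, and *Cd44* at 28.3 CPM against 31.8 CPM. *Pdcd1* was low in cluster 5, with 105 UMIs or 25.9 CPM (21.2 to 31.3) against 38.0 CPM in the other cells. Of the other 9 clusters 7 were above it, up to 69.7 CPM in cluster 9, while clusters 4 and 6 were at 7.26 and 5.36 CPM. A PD-1 protein sort does not fix the mRNA level, and the level within single cells of the cluster was not analysed here.

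Cluster 5 was weakly set apart as a whole. Of 5397 genes with at least 20 CPM in cluster 5 or in the other cells, 12 (0.222%) were at least 1.5-fold higher in cluster 5 and 163 (3.02%) at least 1.5-fold lower, on the log2 ratio with 10 CPM added to both levels, and the median log2 ratio of all 5397 genes was -0.04. At a log2 ratio of 1 the counts were 1 and 56. Without clusters 3, 8 and 10 the 1.5-fold counts were 16 and 119. Against clusters 1, 2, 4 and 6 alone, a reference chosen after the values were seen and without the well covered clusters 7 and 9, they were 33 and 64, and 4 of the 15 genes with the highest ratios were shared, although all 15 still had a ratio above 0. The 12 higher genes were, in order, *Igfbp4*, *Ampd1*, *Klhdc2*, *Emid1*, *Ccdc102a*, *Cd7*, *Ccr9*, *Ddit4*, *Timp2*, *Jaml*, *Ephx1* and *Gpr146*, and *Vim*, *Id2* and *Cd2* fell just short of the fold, with log2 ratios of 0.58, 0.57 and 0.57 beside 0.66 for *Gpr146*.

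Among these genes without a marker role, *Klhdc2*, a substrate receptor of a ubiquitin ligase that reads protein C-termini, had the highest log2 ratio with 10 CPM added (0.89), while the plain ratios of the lower genes *Gpr146* and *Ccdc102a* were larger (2.07 and 2.04). Its level was 135 CPM in cluster 5 (548 UMIs) against 68.1 CPM in the other cells, a ratio of 1.98 (1.80 to 2.18), with cluster 1 next at 117 CPM and cluster 2 lowest at 28.6 CPM. *Timp2*, an inhibitor of matrix metalloproteinases, had 64.5 CPM against 36.5 CPM. *Jaml*, an adhesion molecule that gives T cells costimulation at epithelia, had 37.2 CPM against 19.5 CPM. *Ephx1*, the microsomal epoxide hydrolase, had 149 CPM against 89.6 CPM, and clusters 8 and 9 were above it.

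The leading genes were low in cluster 2, where *Ccl5* was highest, or in cluster 7, where *Xcl1* was highest, and mostly high in cluster 1. Of the 12 genes, 6 had their lowest level in cluster 2 and the other 6 in cluster 7. With cluster 8 left out for its low UMI count, 10 of the 12 were highest in cluster 5, and for 7 of the 12 the highest of the other clusters was cluster 1. All 12 were above cluster 1 in level, but only 2 of them, *Igfbp4* and *Jaml* (log2 ratios of 1.10 and 0.65), passed the 1.5-fold ratio over it, against 5 over cluster 4 and 8 over cluster 6.

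**Figure D2:**
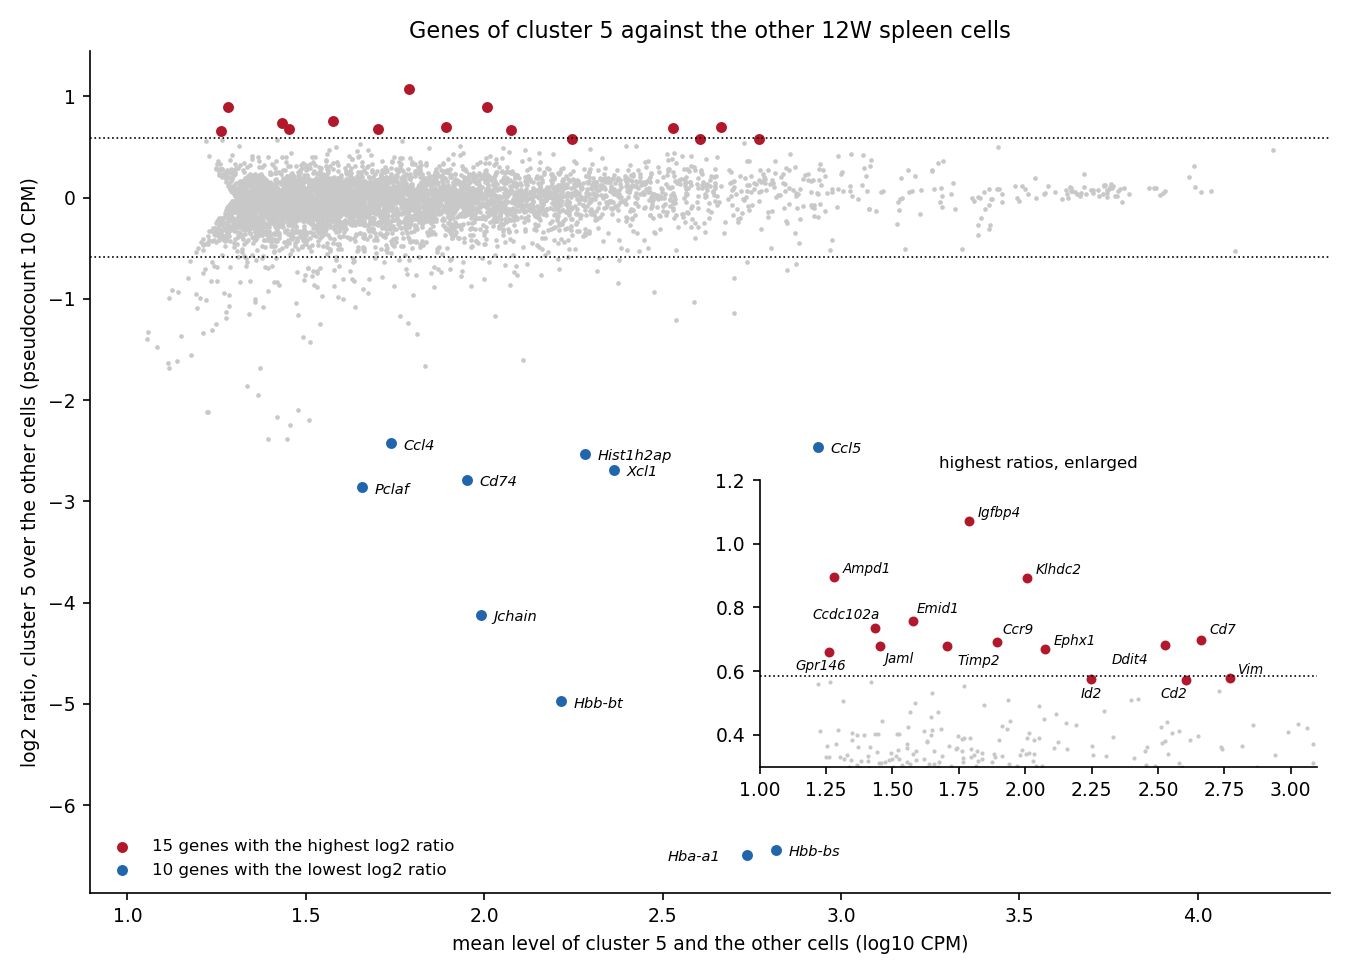
Log2 ratio of cluster 5 over the other 12W spleen cells (vertical axis, 10 CPM added to both) against the mean level of both (horizontal axis, log10 CPM) for the 5397 genes past the filter; dotted lines mark a 1.5-fold ratio. The red points, enlarged in the inset, are the 15 genes with the highest ratio and stay under 1.1 on the log2 scale, while the blue points, the 10 genes with the lowest ratio, reach -6.49.

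The genes that were lower in cluster 5 were mostly genes of other clusters. Of the 163, 72 had their highest level in cluster 7, 57 in cluster 10, 14 in cluster 3, 14 in cluster 8 and 6 in cluster 2. The 10 lowest ratios were those of the globin genes *Hba-a1*, *Hbb-bs* and *Hbb-bt*, of *Jchain* (the joining chain of secreted antibody), of *Pclaf* and *Hist1h2ap* (expressed in dividing cells), of *Cd74* (the MHC class II invariant chain), and of the chemokine genes *Xcl1*, *Ccl5* and *Ccl4*. *Ccl5*, which marks memory and effector CD8+ T cells, had 258 CPM (242 to 274) in cluster 5 and 1468 CPM in the other cells, where cluster 2 alone had 8055 CPM. *Xcl1*, a chemokine gene of activated CD8+ T cells, had 54.7 CPM in cluster 5 and 2088 CPM in cluster 7.

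Several effector genes and all the listed cell division genes were lower in cluster 5 than in the other cells combined. The second difference rested on cluster 10, and the effector list was highest in clusters 2 and 3. Of 13 cytotoxic and effector genes 7 passed the filter, 4 of these were past the fold downward and none upward, and their median log2 ratio was -0.98. *Gzmk* and *Gzma*, granule proteases, had 4.93 and 22.9 CPM in cluster 5 against 27.7 and 55.1 CPM. *Nkg7*, a granule membrane protein, did not differ by the fold, with 446 CPM against 428 CPM. The summed level of the 13 effector genes was 895 CPM in cluster 5, 9802 CPM in cluster 2 and 2490 CPM in cluster 3. In the remaining clusters it ran from 667 CPM (cluster 4) to 1462 CPM (cluster 1). By level alone, cluster 5 was above cluster 4 for 10 of the 13, above cluster 6 for 10 and above cluster 1 for 7. These counts include genes under the filter, and 5 genes passed it over each of these clusters. Over cluster 4, 1 of the 5 was past the fold upward and none downward, where 4.31% of all genes were upward. Over clusters 6 and 1, 2 of 5 were past it downward and none upward, where 0.739 and 8.68% of all genes were downward. The medians over clusters 4, 6 and 1 were 0.35, -0.31 and -0.21, beside 0.14, 0.18 and -0.15 for all genes. Against all other cells, all 8 proliferation genes were past the fold downward, with a median log2 ratio of -2.07. Among them were *Mki67* at 3.69 CPM and *Top2a* at 5.17 CPM, against 351 and 497 CPM in cluster 10. Without clusters 3, 8 and 10 only 2 of the 8 passed the filter, none was past the fold, and the median of all 8 was -0.38. The summed level of the list in cluster 5, 291 CPM, lay near those of clusters 6, 9, 4, 1 and 2 (213, 299, 336, 364 and 379 CPM), with cluster 6 lower. Of 10 inhibitory receptor genes 5 passed the filter and none was past the fold, *Lag3* having 29.8 CPM against 34.0 CPM and *Ctla4* 21.7 CPM against 34.0 CPM.

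Genes of resting and central memory T cells were at intermediate levels. Of the 12 genes of that list, all of which passed the filter, none was past the fold in either direction, and their median log2 ratio was 0.13. *Lef1*, a transcription factor of naive and stem-like T cells, had 430 CPM in cluster 5, below clusters 8, 1 and 4 (776, 583 and 472 CPM), beside cluster 6 (434 CPM) and above cluster 2 (132 CPM) and cluster 7 (95.7 CPM). *Ccr7*, which guides T cells to lymph nodes, had 325 CPM against 307 CPM in the other cells. *Il7r*, the receptor chain for the survival cytokine IL-7, had 191 CPM, above the 180 CPM of cluster 4 and below the 477 CPM of cluster 6 and the 685 CPM of cluster 2. Against clusters 1, 2, 4 and 6 alone the median of the list was -0.15, so its direction depended on the cells it was set against. Of the 12 FoxO and quiescence genes 11 passed the filter and none was past the fold against the other cells, with a median of -0.09. Against clusters 1, 2, 4 and 6 alone the median was -0.36, with 2 of 11 past the fold downward and none upward. Over clusters 4, 6 and 1 one by one the medians were -0.34, -0.30 and -0.52. There 2, 1 and 3 of the 11 were past the fold downward and none upward. For all genes the medians were 0.14, 0.18 and -0.15, and 0.878, 0.739 and 8.68% were downward. After scaling by the median gene ratio, 3, 3 and 1 of the 11 were past the fold downward and none upward. The list medians were then -0.50, -0.50 and -0.34, beside -0.01, -0.01 and 0.02 for all genes.

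Genes shared by all T cells were at like levels in clusters 5 and 1. Of 14 T cell identity genes 12 were above the other cells, with a median log2 ratio of 0.28, and 1, *Cd7*, was past the fold. *Cd3g*, a chain of the T cell receptor complex, had 1323 CPM against 986 CPM, and *Cd2*, an adhesion receptor, 483 CPM against 321 CPM. The exceptions were *Cd27* (313 against 314 CPM) and *Cd28* (170 against 213 CPM), both costimulatory receptors. Over cluster 1 the median was 0.01, with 8 of 14 genes above and 1, *Cd28*, past the fold downward, and the summed level was 8428 CPM in cluster 5 and 8475 CPM in cluster 1.

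*Ccr9* is also a gene of thymocytes and of plasmacytoid dendritic cells, so both lists were examined. Of 12 thymocyte and recent emigrant genes 9 were in the table and 6 passed the filter. *Ccr9* was past the fold upward and *Cd24a*, a surface protein lost as thymocytes mature, was past it downward, at 6.40 CPM against 24.9 CPM. The downward call rested on clusters 3, 8 and 10. Without them 5 genes of the list passed the filter, 1 past the fold upward and none downward. *Sox4* and *Ikzf2*, high in cluster 1 at 180 and 221 CPM, had 53.2 and 101 CPM in cluster 5. Of 7 plasmacytoid dendritic cell genes the defining *Siglech*, *Cox6a2* and *Klk1* had 0 UMIs in cluster 5, and *Ly6d* had 4 UMIs. The list summed to 116 CPM there, of which *Ccr9* made up 98.8 CPM, and to between 28.1 and 235 CPM in the other clusters. *Itgb7* and *Itga4*, whose products pair as the gut homing integrin that acts alongside CCR9, differed in direction. *Itgb7* had 360 CPM against 294 CPM and *Itga4* 104 CPM against 184 CPM. Of the 10 gut homing and egress genes 9 passed the filter, with 1 past the fold in each direction and a median of 0.18, which became -0.15 against clusters 1, 2, 4 and 6 alone. Among 13 chemokine receptor genes 5 passed it and *Ccr9* was the 1 past the fold, with a list median of 0.08 that became -0.12 against those clusters.

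In the pathways of the other markers no gene besides the marker was past the fold against the other cells. Of 9 glucocorticoid response genes 6 passed the filter and *Ddit4* was the 1 past the fold, whereas the classical targets *Tsc22d3* (385 against 361 CPM) and *Fkbp5* (23.6 against 30.1 CPM) were near the other cells. Of 14 genes of mTORC1 and its inhibitors 6 passed and *Ddit4* again was the 1 past the fold. *Sesn1*, another mTORC1 inhibitor, had 57.1 CPM against 71.7 CPM. Of 15 purine nucleotide genes 8 passed and *Ampd1* was the 1 past the fold, and the related *Ampd2*, the widely expressed AMP deaminase, had 11.6 CPM against 17.5 CPM. Of 11 genes of the insulin-like growth factor and insulin axis 6 were in the table and 2 passed, *Igfbp4* and *Igf2r*, a receptor that clears IGF2 (53.5 against 49.9 CPM). *Igf1* and the receptor gene *Igf1r* had 2 and 11 UMIs in the cluster.

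Markers of other cell types were at low levels. The 6 erythroid genes summed to 8.38 CPM in cluster 5, against 37177 CPM in cluster 3 and 6.77 CPM in cluster 4, the lowest. The 6 B cell genes summed to 233 CPM, within the range of 101 CPM (cluster 7) to 3098 CPM (cluster 3), and the defining gene *Ms4a1* had 1 UMI. The 7 myeloid genes summed to 189 CPM, of which *Cst3*, a widely expressed gene, made up 183 CPM, and *Itgam* and *S100a8* had 0 UMIs. The 5 CD4 and regulatory genes summed to 5.42 CPM, the 6 gamma delta T cell genes to 34.7 CPM and the 5 NK cell genes to 15.03 CPM. *Trdc*, the delta chain constant gene, had 12.6 CPM, against 126 CPM in cluster 3. The part of these transcripts in the results was not tested. Doublets could not be sought, because the tables hold sums over cells.

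**Figure D3:**
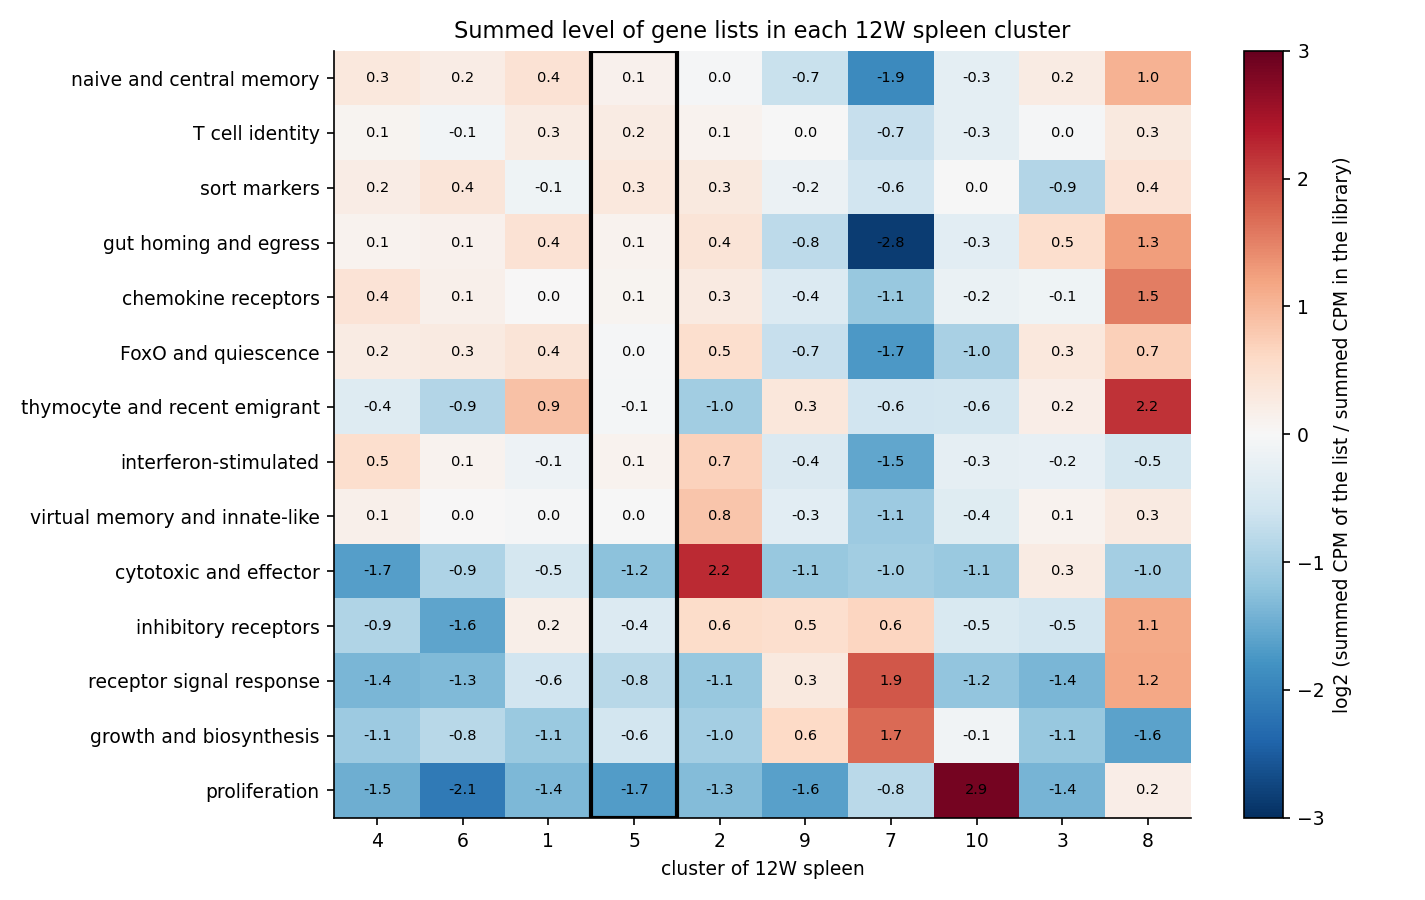
Summed level of 14 gene lists in each cluster of 12W spleen as the log2 ratio to the whole library (0, white; colour scale from -3 to 3), with cluster 5 framed and the 3 clusters most like it at the left. Cluster 5 was near the library level for the resting, homing and identity lists. It was low, as were most other clusters, for the cytotoxic (-1.2) and proliferation (-1.7) lists. For growth and biosynthesis it was at -0.6, between clusters 4 and 1 (both -1.1) and clusters 9 and 7 (0.6 and 1.7).

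The question of which other clusters it resembled was put to the profile over 7924 genes with at least 20 CPM in 1 or more clusters. The Pearson correlation of log2 levels with cluster 5 was 0.985 for cluster 4, 0.984 for cluster 6 and 0.981 for cluster 1, then 0.972 for clusters 2 and 9, 0.954 for cluster 3, 0.921 for cluster 10, 0.870 for cluster 7 and 0.628 for cluster 8. These values are descriptions across genes, which are not independent, and they share the library and, for cluster 8, a low depth. Clusters 4, 6 and 1 were also the highest 3 by Spearman correlation (0.975, 0.969 and 0.967) and were compared with cluster 5 one by one.

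Against cluster 4, cluster 5 had more transcripts of receptor response and growth genes. Of 5128 genes 221 (4.31%) were at least 1.5-fold higher in cluster 5 and 45 (0.878%) lower, with a median log2 ratio of 0.14, and after scaling by the median gene ratio the counts were 115 and 109. The 5 highest ratios were those of *Nr4a1*, *Srm*, *Timm8a1*, *Pno1* and *Fubp1*. *Nr4a1*, an early gene that follows T cell receptor triggering, had 55.7 CPM in cluster 5 (226 UMIs) and 5.12 CPM in cluster 4 (31 UMIs), a ratio of 10.9 (7.46 to 16.4). *Srm*, the spermidine synthase, had 62.1 CPM against 18.8 CPM, a ratio of 3.30 (2.63 to 4.15). The 5 lowest were *H2-Oa*, *Thada*, *Ctla2a*, *Arl5c* and *Ifit3*, with *H2-Oa*, a chain of the class II modifier H2-O, at 29.3 CPM against 73.6 CPM, and *Ifit3*, an interferon-stimulated gene, at 20.2 CPM against 47.0 CPM.

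Against cluster 6, 253 of 5144 genes (4.92%) were higher and 38 (0.739%) lower, with a median of 0.18, and 95 and 115 after scaling by the median gene ratio. The 5 highest ratios were those of the transcription factor genes *Sox4*, *Id3*, *Ikzf2* and *Myb* and of *Lgals1*, the galectin-1 gene. *Id3*, an inhibitor of E proteins, had 286 CPM in cluster 5 and 90.1 CPM in cluster 6, a ratio of 3.18 (2.70 to 3.76), and *Lgals1* had 635 CPM against 235 CPM. The 5 lowest were *Il7r*, *Socs3*, *Gzma*, *Il18r1* and *Il6ra*, which include the receptor chains for IL-7, IL-18 and IL-6, *Il7r* having 191 CPM against 477 CPM and *Il6ra* 16.0 CPM against 44.5 CPM.

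Against cluster 1 the balance was turned. Of 5702 genes 31 (0.544%) were higher in cluster 5 and 495 (8.68%) lower, with a median of -0.15, and 107 and 176 after scaling by the median gene ratio. The 5 highest were *Igfbp4*, *Ppa1* (a pyrophosphatase), *Psat1* (serine synthesis), *Nme2* (a nucleoside diphosphate kinase) and *Mettl1* (a tRNA methyltransferase), *Nme2* having 810 CPM against 424 CPM, a ratio of 1.91 (1.81 to 2.01). The 5 lowest were *Ccl5*, *Myb*, *Sox4*, *Kcnc1* and *Samd3*. *Myb* and *Sox4* thus had 54.4 and 53.2 CPM in cluster 5, between 192 and 180 CPM in cluster 1 and 13.9 and 8.04 CPM in cluster 6.

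Growth and biosynthesis genes placed cluster 5 above clusters 4 and 1 and below clusters 9 and 7. Against all other cells of 12W spleen, 6 of the 10 genes were past the fold downward and none upward, with a median of -0.60. Against clusters 1, 2, 4 and 6 alone 6 were past it upward and none downward, with a median of 0.62. Each of the 10 genes was higher in cluster 5 than in cluster 4, 9 were higher than in cluster 1 and 8 than in cluster 6, and each was lower than in clusters 7 and 9. *Mif*, a cytokine gene that is high in growing cells, had 299 CPM in cluster 4, 352 in cluster 1, 425 in cluster 6, 578 in cluster 5, 1471 in cluster 9 and 3106 in cluster 7. *Nme1*, a nucleoside diphosphate kinase, followed the same order, with 70.8, 80.7, 115, 155, 383 and 547 CPM. *Myc*, the transcription factor that drives this programme, had 113 CPM in cluster 5 between 91.7 in cluster 6 and 247 in cluster 9. *Odc1*, which makes putrescine, and *Srm* were the exceptions over cluster 6, which had 41.3 and 70.2 CPM beside 32.3 and 62.1 CPM in cluster 5, and *Ncl* (nucleolin) was the exception over cluster 1, with 252 CPM beside 265. The list median over cluster 4 was 0.91 beside 0.14 for all genes and over cluster 1 it was 0.58 beside -0.15, whereas over cluster 6 it was 0.16 beside 0.18 and became -0.05 after scaling by the median gene ratio.

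**Figure D4:**
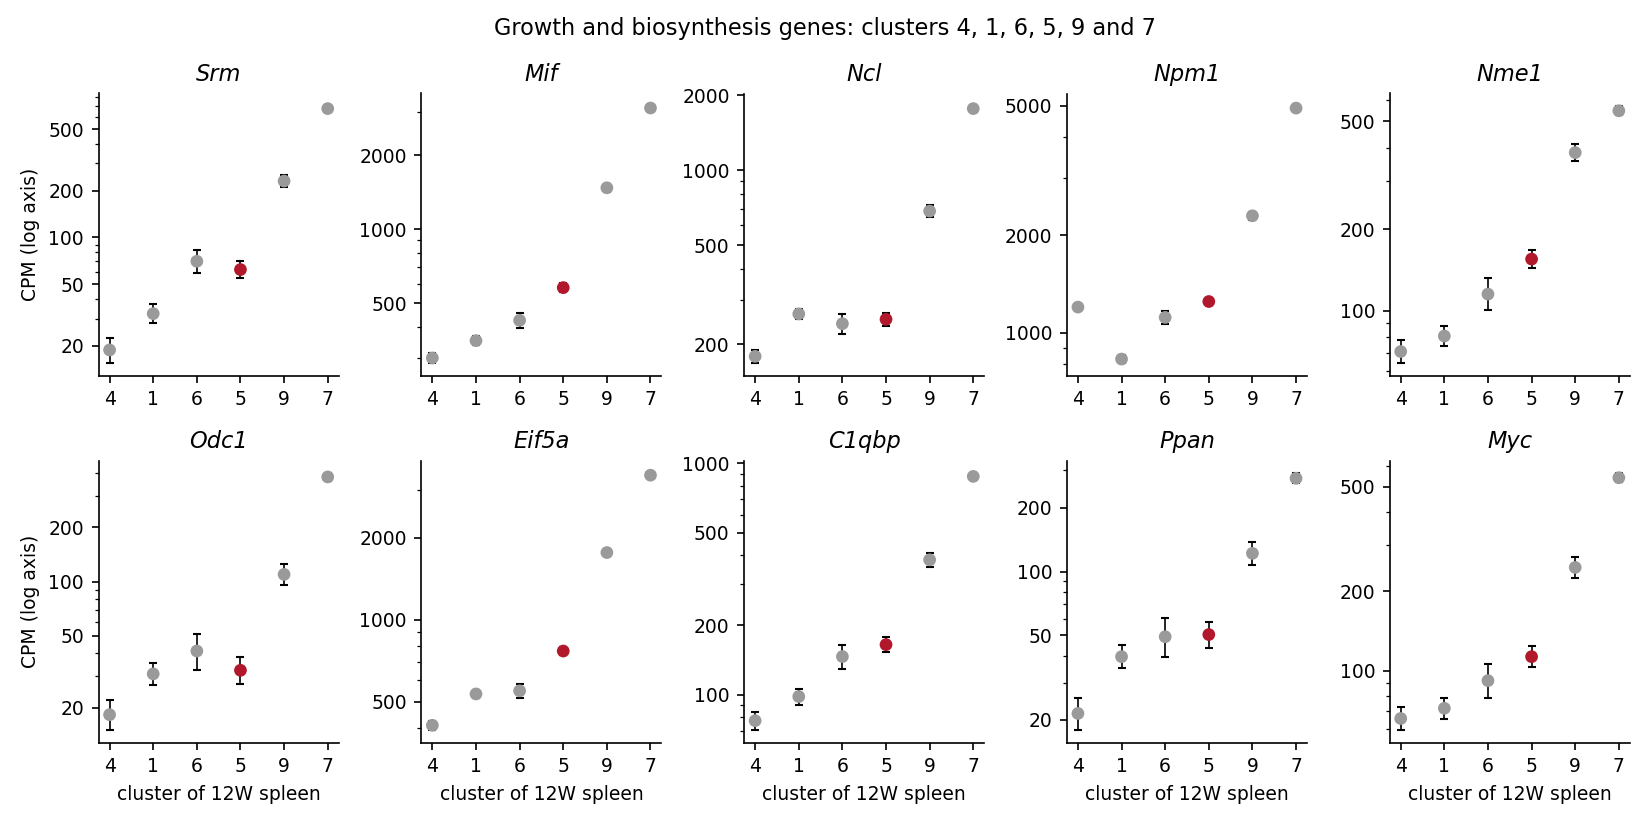
Level of the 10 growth and biosynthesis genes in clusters 4, 1, 6, 5, 9 and 7 of 12W spleen (CPM on a log axis, exact Poisson 95% intervals for counting error, cluster 5 in red). For *Mif*, *Nme1*, *Eif5a*, *C1qbp* and *Myc* cluster 5 lay above clusters 4, 1 and 6 and below clusters 9 and 7, while *Odc1* and *Srm* were higher in cluster 6 (41.3 and 70.2 CPM) than in cluster 5.

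Genes of the response to receptor triggering were mostly above clusters 4 and 6, with 11 of 14 higher than in each by level alone, and all 14 were below cluster 9. The median log2 ratio of all genes past the filter was also above 0, at 0.14 over cluster 4 and 0.18 over cluster 6. Against all other cells 3 of the 9 list genes past the filter were past the fold downward, *Xcl1*, *Tnfrsf9* and *Nr4a2*, with a list median of -0.45, which became 0.11 for the same genes against clusters 1, 2, 4 and 6 alone. Over cluster 4, 4 of the 7 past the filter were upward and none downward, with a median of 0.69, where 4.31% of all genes were upward. Over cluster 6, 4 of 7 were upward and none downward, with a median of 0.75, where 4.92% of all genes were upward. After scaling by the median gene ratio the upward counts over clusters 4 and 6 were both 3 of 7. The medians were then 0.55 and 0.57, beside -0.01 for all genes in both. Over cluster 1, 1 of 9 was past the fold in each direction, with a median of -0.28. *Egr1*, an early receptor response factor, had 83.8 CPM in cluster 5 beside 95.7 in cluster 1, 38.8 in cluster 4 and 45.6 in cluster 6. *Tnfrsf9*, the costimulatory receptor 4-1BB, had 27.6 CPM beside 13.4 in cluster 4, 6.43 in cluster 6 and 523 in cluster 7. *Cd160*, an inhibitory receptor gene, had 52.7 CPM, above the 22.6 and 18.8 CPM of clusters 4 and 6. Of the 5 inhibitory receptor genes past the filter over cluster 4, *Cd160* and *Pdcd1* were past the fold upward and *Ctla4* (21.7 beside 39.1 CPM) downward, with a median of 0.36. Over cluster 6, 4 of 5 were past it upward and none downward, with a median of 1.11, and over cluster 1, 3 of 6 were past it downward and none upward, with a median of -0.51.

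How many interferon-stimulated genes were past the fold depended on the scaling. Over cluster 4, 2 of the 9 past the filter were past it downward and none upward. Over cluster 6, 1 of 8 was past it downward and none upward. After scaling by the median gene ratio, 5 of 9 were past it downward over cluster 4 and 4 of 9 over cluster 6. None was upward in either case, and the medians were -0.60 and -0.55. By level alone, of the 10 genes, 9 had a lower level in cluster 5 than in cluster 4, with *Bst2* the exception (178 against 154 CPM), and 8 a lower level than in cluster 6. Without the scaling the median log2 ratio was -0.43 over cluster 4 and -0.37 over cluster 6, and 0.03 over all other cells. *Ifit1* had 17.7 CPM in cluster 5 beside 37.1 in cluster 4 and 28.4 in cluster 6, and *Isg15* 67.2 CPM beside 87.3 and 92.7. Over cluster 1 the median was -0.03 and became 0.30 after scaling by the median gene ratio.

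Some adhesion genes that were high in cluster 2 were lower in cluster 5. Of 11 CD29 and adhesion genes 10 passed the filter and 4 were past the fold downward, *Itga4*, *Itgb1* (CD29, 78.8 against 128 CPM), *S100a4* and *S100a6*, each with over 150 CPM in cluster 2. *Lgals1* was an exception, with 635 CPM against 435 CPM. Of 10 virtual memory and innate-like genes 6 passed and *Eomes*, a memory and exhaustion transcription factor, was the 1 past the fold, with 45.1 CPM against 83.7 CPM. Of 7 dissociation and stress genes 4 passed and none was past the fold, *Fos* having 129 CPM against 122 CPM.

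Use of T cell receptor V segments, left out of the comparisons above, was broad in cluster 5. Among 4885 UMIs of *Trav* segments the leading ones were *Trav3-3* with 9.36% (8.55 to 10.2), *Trav13-1* with 6.16% (5.504 to 6.873) and *Trav6n-6* with 4.42% (3.86 to 5.04), against 10.3, 5.66 and 3.03% in the other cells. The share of *Trav6n-6* was above the 2.18 to 3.58% range of the other clusters. Among 9465 UMIs of *Trbv* segments *Trbv13-1* made up 22.5% (21.7 to 23.4), *Trbv13-2* 20.1% (19.3 to 20.9) and *Trbv1* 12.7% (12.0 to 13.4), against 20.7, 21.3 and 12.4% in the other cells. The effective number of segments, the inverse of the chance that 2 UMIs share a segment, was 32.3 for *Trav* and 7.53 for *Trbv*, beside 32.7 and 7.92 over the other cells. UMIs of 1 cell share its receptor, so the intervals of these shares are too narrow as a statement about cells, and segments of near-identical sequence can share reads.

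The leading genes were next followed into the 28W libraries, whose tables were normalized apart and whose clusters were drawn anew. For 28W spleen age and library cannot be told apart, and for 28W kidney age, organ and library cannot be told apart. The cluster of 28W spleen with the highest correlation to cluster 5 was cluster 7 (r = 0.979 over 7921 genes, 390 cells), and that of 28W kidney was cluster 4 (r = 0.958 over 7923 genes, 786 cells), where cluster 5 of the kidney had nearly the same value (0.958). No cluster is called the same population as cluster 5 of 12W spleen.

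*Ccr9* and *Ampd1* were low in every 28W cluster. *Ccr9* was 98.8 CPM in cluster 5 of 12W spleen, between 2.29 and 26.2 CPM in the 11 clusters of 28W spleen, and between 0.579 and 11.6 CPM in the 12 clusters of 28W kidney. *Ampd1* did not exceed 6.03 CPM in 28W spleen or 0.714 CPM in 28W kidney. In the clusters nearest by profile *Ccr9* had 11.4 CPM (28W spleen) and 0.579 CPM (28W kidney). Over whole libraries *Ccr9* had 62.2 CPM in 12W spleen, 9.74 CPM in 28W spleen and 2.104 CPM in 28W kidney, so it was not cluster 5 alone that differed.

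Of the 12 higher genes, 11 were above each cluster of 28W spleen and 9 above each cluster of 28W kidney. The 12 were picked for their high level in cluster 5, which favours such counts. The share of all genes above every 28W cluster was not counted, so these counts are no result about age or organ. *Igfbp4* reached 52.1 CPM at most in 28W spleen and 20.6 CPM in its nearest cluster. In 28W kidney it reached 382 CPM in cluster 7 and 105 CPM in cluster 12, and 1.16 CPM in cluster 4, the nearest by profile. Kidney cluster 12 carried the myeloid genes *Lyz2* and *C1qa* at 3170 and 2293 CPM. Kidney cluster 7 had 4.26% mitochondrial UMIs and 5785 CPM of *Jchain*, so neither level can be read as that of CD8+ T cells alone. *Cd7* lay between 96.5 and 442 CPM in 28W spleen and between 28.9 and 173 CPM in 28W kidney, and *Ddit4* reached 272 and 294 CPM, all below cluster 5. *Jaml* went the other way, with 11 of the 12 kidney clusters at or above the 37.2 CPM of cluster 5, and *Vim*, the intermediate filament gene, was at or above the 706 CPM of cluster 5 in 9 of 12.

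**Figure D5:**
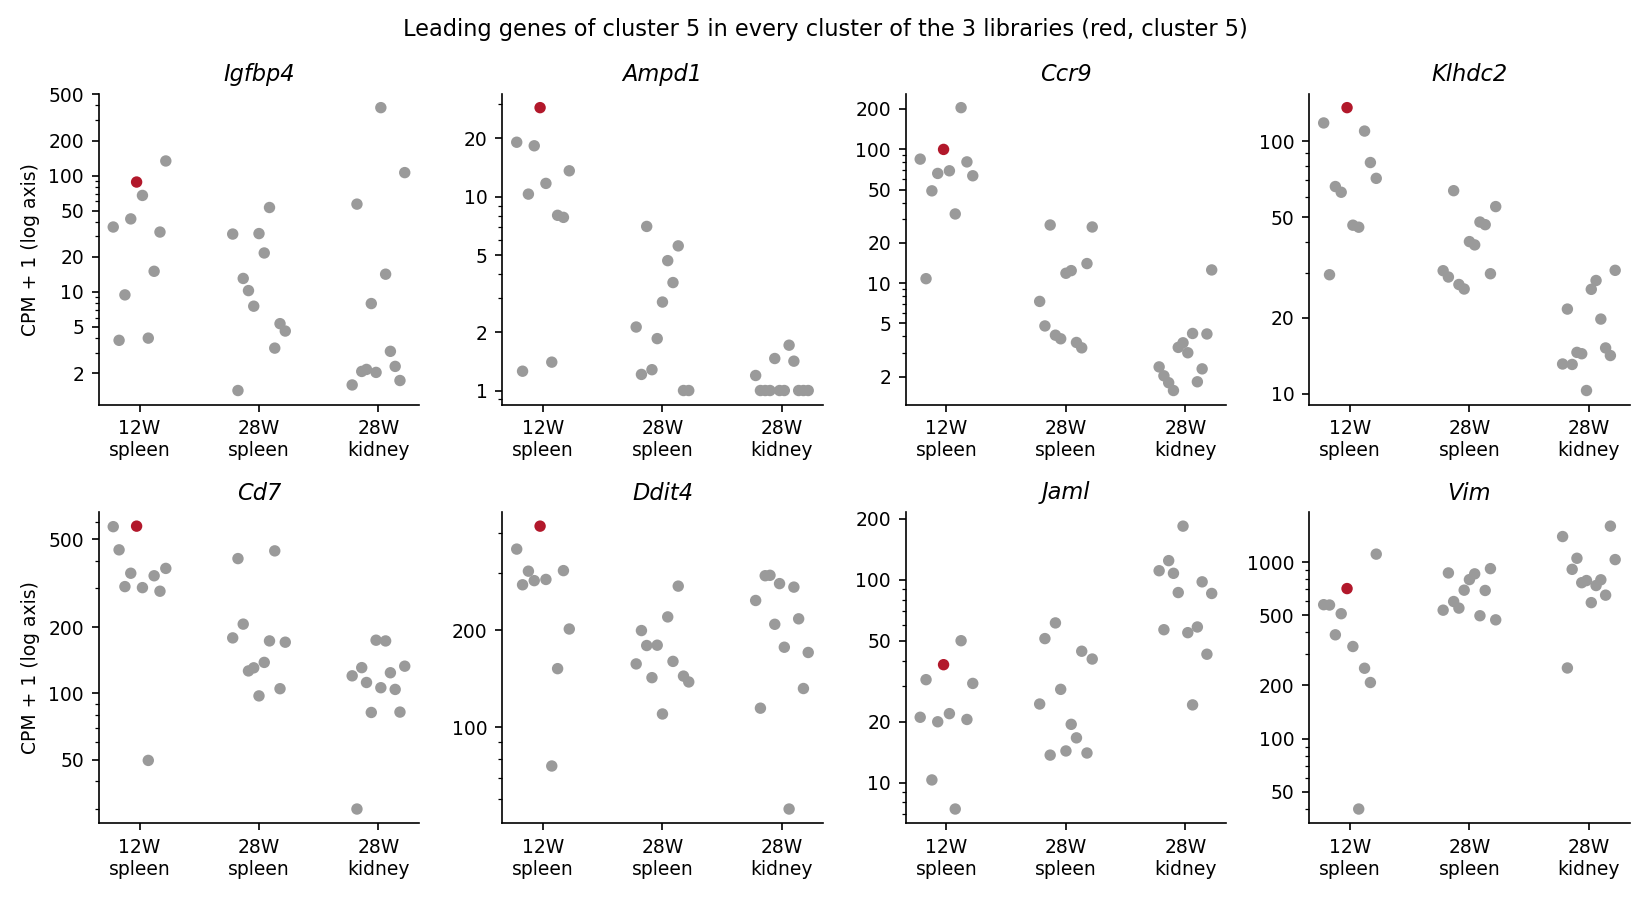
Level of 8 leading genes of cluster 5 in every cluster of the 3 libraries (CPM + 1 on a log axis, 1 point per cluster, cluster 5 of 12W spleen in red). *Ccr9*, *Ampd1* and *Klhdc2* were lower in each 28W cluster than in cluster 5, whereas *Jaml* and *Vim* reached higher levels in 28W kidney (183 and 1596 CPM at most).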

How the data were processed

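Per the labels and methods, PD-1+CD44+CD8+ T cells were sorted and sequenced with the 10x Chromium 5′ chemistry, and the labels' processing notes name Cell Ranger 2.1.1, R 3.6.1 and GRCm38. Cell filters, clustering settings, doublet treatment and annotation release are not given in the sources used here. The deposited tables give cluster numbers per cell barcode and, per gene and cluster, a mean UMI count that the authors scaled to 1 total per library; their columns of log2 fold changes and adjusted p-values were not used. The values of a column were whole multiples of its smallest value within 0.001, so UMIs were recovered from them and expressed as CPM. Of the columns of mean counts 0 were left unused.

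Cluster 5 was compared with the summed other clusters and with the 3 clusters of highest correlation, over genes of at least 20 CPM on either side, V, D and J segments apart, by the log2 ratio with 10 CPM added, called at 1.5-fold. Intervals were exact Poisson, binomial or conditional binomial at 95%, for counting error only; the floor for 0 UMIs was 3 counts. Each library pools 4 labelled samples, so no test was possible and none was run. Cluster 5 had 4059688 UMIs. Named genes were the 15 highest and 10 lowest against the other cells, the 5 highest and 5 lowest against each near cluster, the 5 markers, members of 27 lists and the 3 most used segments of each chain. The members and lists were chosen with earlier results of these data known. Positions are from GENCODE vM21 on GRCm38. Values of some single list genes are not reported here. The recovery and the calls were tested on simulated data. Alternatives changed the pseudocount, filter, scaling, reference clusters, correlation and diversity measure. Python 3.11.15, pandas 2.3.3, numpy 2.4.6, scipy 1.17.1 and matplotlib 3.10.9 were used.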

Additional observations from a re-analysis of the deposited data

How the results depend on the processing

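No paired analysis was possible because the tables pool the samples of each group, and for the same reason no replicate could be left out. The 12 genes higher in cluster 5 became 25 with a pseudocount of 1 CPM, 4 with a filter of 100 CPM, 21 with totals that left out genes of ribosomal proteins, mitochondria and the T cell receptor, and 33 without clusters 3, 7, 8, 9 and 10, an alternative chosen after seeing the data. The 163 lower genes became 252 with a pseudocount of 1 CPM, 270 with no filter, 41 with a filter of 100 CPM, 596 with equal weight for each cluster and 64 without those 5 clusters. With a pseudocount of 1 CPM the higher and lower counts were 402 and 79 over cluster 4, 527 and 72 over cluster 6, and 68 and 913 over cluster 1; with scaling by the median gene ratio they were 115 and 109, 95 and 115, and 107 and 176. Against the highest of the other clusters the log2 ratio turned to -0.56 for *Igfbp4*, -0.97 for *Ccr9*, -0.33 for *Jaml*, -0.43 for *Ephx1* and -0.68 for *Gpr146*. That cluster was cluster 10 for *Igfbp4* and cluster 8, which had the fewest UMIs per cell, for the rest of these genes. For *Jaml* and *Gpr146* the counting interval of the plain ratio to cluster 8 included 1 (0.437 to 1.42 and 0.302 to 1.05). The median of the growth and biosynthesis list turned to 0.62 without clusters 3, 7, 8, 9 and 10. By the exponential of the Shannon entropy the effective number of segments was 44.1 for *Trav* and 10.2 for *Trbv*. The nearest 28W clusters were unchanged under both alternatives tried for them. The cause of these shifts was not tested. Lists with under 3 genes past the filter have no median there. Depth limits low genes: in cluster 5, 0 UMIs allow up to 0.739 CPM.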

Other observations

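With cluster 8 left out for its low UMI count, the highest of the remaining 9 clusters was found for each of 7924 genes. Those genes had at least 20 CPM in any cluster, cluster 8 included. Cluster 5 was the highest for 193 of them, or 2.44%, against 2623 for cluster 1 and 2147 for cluster 7. For 19 of the 193 the counting interval of the ratio to the next cluster lay above 1. These genes were chosen after their values were seen, and the clustering used them. Some of those not described above follow as single values, with no list or test behind their choice. *Tmsb10*, an actin-binding thymosin, had 18905 CPM in cluster 5 and 17268 CPM in cluster 1, a ratio of 1.09 (1.08 to 1.10). *Arpc1b*, a subunit of the Arp2/3 complex that nucleates actin, had 976 CPM against 915 CPM in cluster 9. *Vasp*, which promotes filament elongation, had 318 CPM against 291 CPM in cluster 2. *Cnn2*, an actin-binding calponin, had 1226 CPM against 1128 CPM in cluster 1, and *Myl12a*, a myosin regulatory light chain, 682 CPM against 600 CPM in cluster 3.

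*Il2rg*, the common gamma chain of several interleukin receptors, had 829 CPM in cluster 5 and 735 CPM in cluster 2, a ratio of 1.13 (1.07 to 1.19). *Ctsc*, which activates granzymes by cleaving their propeptide, had 119 CPM against 99.2 CPM in cluster 1, a ratio of 1.205 (1.07 to 1.36). *Cd52*, a small surface glycoprotein of lymphocytes, had 3221 CPM against 3056 CPM in cluster 4.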
